A study of Bos taurus with 138 samples.

Results

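The 10 genes described here mark the hypoblast or carry fibroblast growth factor (FGF) signals in the early bovine embryo. They are the transcription factor genes GATA6, GATA4, SOX17 and HNF4A, the growth factor receptor gene PDGFRA, the ligand genes FGF2 and FGF4, and the receptor genes FGFR1, FGFR2 and FGFR4. They were chosen by symbol, not by level, and all 10 were found among the 16706 gene symbols of the count table. All 10 passed the filter on low counts, HNF4A and FGF4 through the few groups in which they had counts at all.

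Bovine germinal vesicle (GV) oocytes were taken from slaughterhouse ovaries, matured in vitro to metaphase II (MII), fertilised with semen of 1 Holstein bull and cultured to the 2-cell, 8-cell, morula and blastocyst stages. All cells for polysome profiling were held in cycloheximide, an inhibitor of elongation that keeps ribosomes on mRNA, and their lysates were spun through a sucrose gradient that was cut into 10 fractions (F1 to F10) from light to heavy. Each stage had 2 gradients (A and B), each with all 10 fractions sequenced, and 3 transcriptomes (A, B and C) made from pools of whole zona-free oocytes or embryos without a gradient. Within the gradients, and within the transcriptomes, the groups differ only by stage and carry no other treatment. Gradients and transcriptomes also differ in preparation. By the paper, gradient lysates were made with beads and cleared by centrifugation, RNA was taken from each fraction, and transcriptomes came from smaller pools. Such differences cannot be told apart from a difference between polysomes and whole embryos. The polysome pool of a gradient is the sum of its counts in F8, F9 and F10, the fractions of mRNA with several ribosomes. Both kinds of library come from whole embryos, so that fewer cells of a type and less RNA per cell cannot be told apart.

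The hypoblast is the layer of the inner cell mass that goes on to line the yolk sac, beside the epiblast that forms the fetus. In the mammals studied most, FGF4 made by epiblast precursors acts through FGF receptors and the RAS-ERK cascade on neighbouring cells, where it favours GATA6 over NANOG. PDGFRA and GATA6 appear early in that lineage, SOX17 and GATA4 follow, and HNF4A marks the later visceral endoderm.

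Levels are CPM, read counts scaled to a common library size with factors from the trimmed mean of M values, which compare 1 gene between libraries. They are not compared between genes, because no transcript lengths were used. Single fractions, and the heavy and light pools set against each other, were scaled apart from the transcriptomes. Their CPM and those of the transcriptomes are therefore on unlike scales. A fold difference passed the test where its adjusted p, over all genes fitted in that comparison, was below 0.05 in edgeR's quasi-likelihood test, and for changes between stages where it also exceeded 2-fold. The labels call the gradients biological duplicates and the transcriptomes biological triplicates, and the study's text has the profiling done 2 times with transcriptomes from the same batches. Which transcriptome belongs to which batch is not given in the sources used here, so p-values measure the spread between these libraries. Intervals and floors given for genes with few counts cover counting error only.

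The transcriptomes held 3269386 to 11812567 counts and the polysome pools 22543737 to 39380638. Oocyte markers summed to 18418 to 21994 CPM in the GV and MII transcriptomes and to 39.8 to 147 CPM in those of blastocysts, where trophectoderm markers reached 5530.5 to 6552 CPM, and sperm markers stayed at or below 5.602 CPM. Blood cell markers summed to 4.79 to 142 CPM in the transcriptomes. Cumulus and granulosa markers summed to 572 to 706 CPM in GV, 600 to 805 CPM in MII and 406 to 449 CPM in 2-cell transcriptomes. Those of morulae and blastocysts held 32.3 to 88.9 CPM of them. The transcriptome A of 8-cell embryos stood apart. Its 16 fibroblast and mesenchyme markers summed to 12422.5 CPM against 2170 and 1821 CPM in B and C, and its cumulus and granulosa markers to 1313 CPM against 295 and 341 CPM. The members' results that passed on the 8-cell transcriptomes, and the counts over the pathway lists, are therefore given with and without that library.

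From the 8-cell stage on, the polysome pools and the transcriptomes parted in opposite directions for different members. GATA6 and FGFR4 were 7.97-fold to 44.3-fold higher in the pools than in the transcriptomes of 8-cell embryos, morulae and blastocysts. PDGFRA and FGF2 were 2.98-fold to 8.09-fold lower in the pools at the same stages. Their pools also lay below every transcriptome in GV and MII oocytes, where their differences did not pass. In all, 20 of the 60 differences between pool and transcriptome passed the test, a smaller share than the 49.9% found over all genes. Without HNF4A and FGF4 these were 18 of 48. By stage, members that passed numbered 1 in GV oocytes (39.8% of all genes), 2 in MII oocytes (57.5%) and 2 in 2-cell embryos (51.0%). At the later stages 6 members passed in 8-cell embryos (59.1%), 4 passed in morulae (51.7%) and 5 passed in blastocysts (40.1%), so that the share of members lay near or below that of all genes at every stage but the blastocyst. The members' median log2 difference was 1.18, 0.84 and 1.42 at the last 3 stages, beside -0.26, 0 and -0.08 over all genes, from fitted values that include genes at 0 counts in a group and depend there on the fit. Of the 60 differences, 19 passed without the 8-cell transcriptome A.

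**Figure D1:**
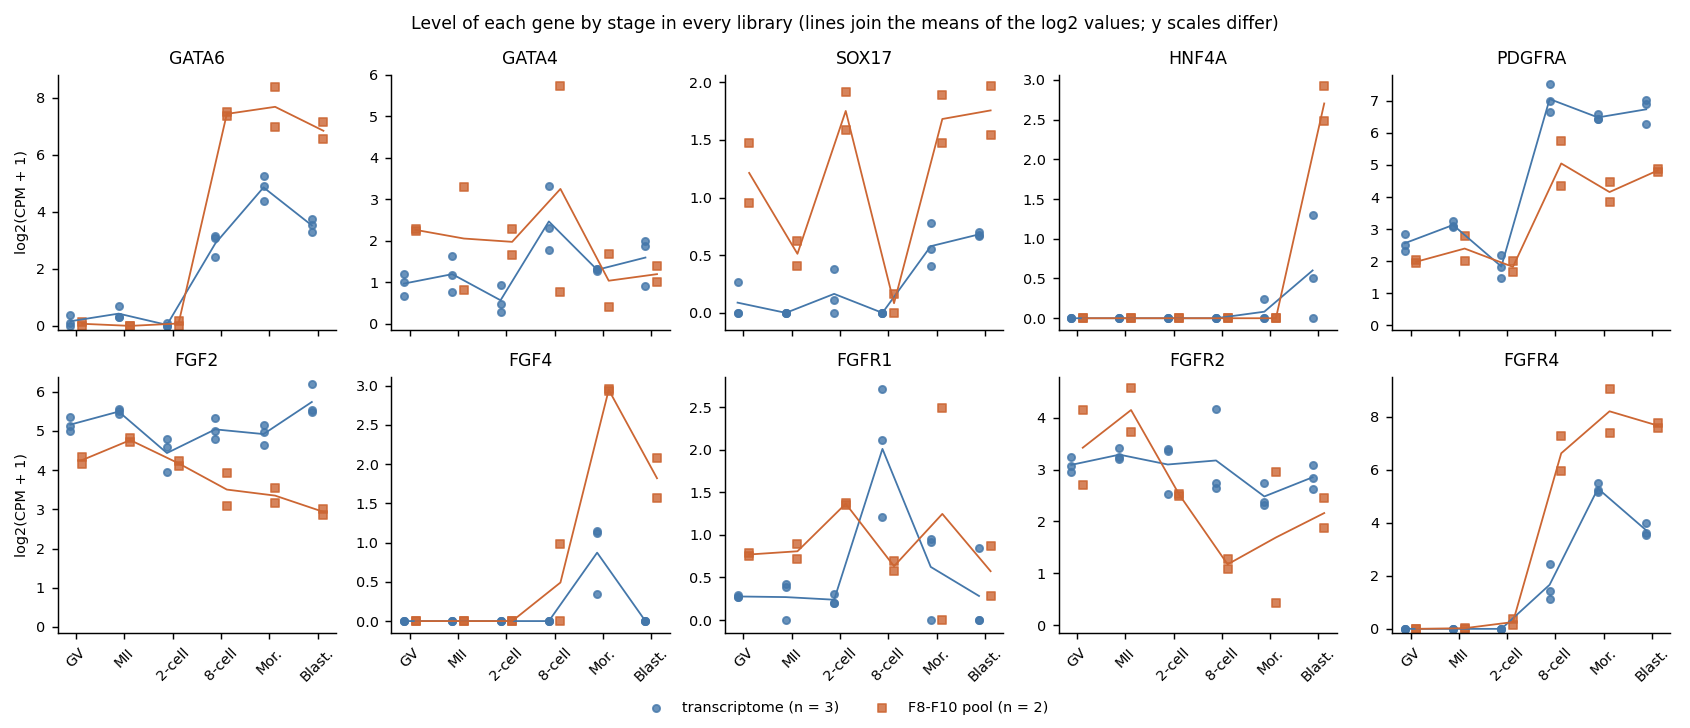
Level of each of the 10 genes on the log2(CPM + 1) scale in the 18 transcriptomes (circles, 3 per stage) and 12 polysome pools (squares, 2 per stage), with lines joining the means of the log2 values. GATA6 and FGFR4 rise at the 8-cell stage with the pools above the transcriptomes. For PDGFRA and FGF2 the pools lie below the transcriptomes at every stage but the 2-cell stage, and the difference passed the test from the 8-cell stage on.

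GATA6 encodes a zinc-finger transcription factor that is among the first markers of hypoblast precursors. Before the 8-cell stage it was close to absent: the 9 transcriptomes held 0 to 0.608 CPM and the 6 pools 0 to 0.123 CPM. In 8-cell embryos the transcriptomes held 7.46, 4.39 and 7.92 CPM and the pools 163 and 182 CPM. In morulae the transcriptomes held 37.7, 29.0 and 20.0 CPM and the pools 124 and 336 CPM. In blastocysts the transcriptomes held 10.6, 12.4 and 8.80 CPM and the pools 140 and 92.7 CPM. At each of these 3 stages both pools lay above all 3 transcriptomes.

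The difference for GATA6 was 26.2-fold in 8-cell embryos (log2 4.71 ± 0.67, SE; adjusted p = 3.7e-06), with means of 172 ± 13 CPM in the pools (SD, n = 2) and 6.59 ± 1.92 CPM in the transcriptomes (SD, n = 3). Leaving out the 8-cell transcriptome A gave 4.81 on the log2 scale (adjusted p = 4.8e-05). It was 7.97-fold in morulae (log2 2.99 ± 0.63; adjusted p = 0.000431) and 11-fold in blastocysts (log2 3.45 ± 0.65; adjusted p = 0.000187). The morula value was 2.10 without morula pool B (adjusted p = 0.0155). The difference also passed in MII oocytes, in the other direction, but on very few counts: 10 in the 3 transcriptomes and 0 in the pools, which makes the pools at least 6.38-fold lower against a floor of 3 counts over the group (adjusted p = 0.0023).

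The GATA6 transcriptome rose between the 2-cell and 8-cell stages from 1 count to 227 counts over 3 libraries, a ratio of 252 with an exact binomial 95% interval of 44.7 to 9981. Leaving out the 8-cell transcriptome A made it 140 counts against 1, a ratio of 236 (95% interval 41.7 to 9402). It rose a further 4.38-fold to the morula (log2 2.13 ± 0.59; adjusted p = 0.0151). That second rise was lost when the 8-cell transcriptome B or the morula transcriptome A was left out, and without the 8-cell transcriptome A it was 2.23 (adjusted p = 0.0426). From morula to blastocyst the transcriptomes did not overlap, but the log2 change of -1.45 did not pass (adjusted p = 0.0759). In the polysome pools GATA6 rose from the 2-cell to the 8-cell stage (log2 11.35 ± 1.11; adjusted p = 4.6e-08; 10.38 and 14.56 without 2-cell pool A and B), and neither later step passed (log2 0.42 and -0.99). The value of 14.56 depends on the fit, since 2-cell pool A held 0 counts.

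GATA4, a related factor of the same family and a marker of later hypoblast, was measured at low levels with an uneven spread. The transcriptomes held 0.607, 1.03 and 1.32 CPM in GV oocytes, 1.26, 2.13 and 0.714 CPM in MII oocytes, and 0.228, 0.40 and 0.903 CPM in 2-cell embryos. They then held 9.0, 3.94 and 2.44 CPM in 8-cell embryos, 1.40 to 1.52 CPM in morulae, and 0.882, 2.70 and 3.0 CPM in blastocysts. All 3 of the 8-cell transcriptomes were above those of the 2-cell stage, and the highest was the transcriptome A that stood apart. The rise was 9.91-fold (log2 3.31 ± 1.11; adjusted p = 0.0153), and without that library it was 2.63 on the log2 scale and did not pass (adjusted p = 0.0659). It passed in 3 of the 6 fits that left out 1 library and was also lost without the 2-cell transcriptome A or B (adjusted p = 0.0654 and 0.0553).

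The GATA4 polysome pools disagreed within a stage. They held 3.76 and 3.86 CPM in GV oocytes, 0.756 and 8.87 CPM in MII oocytes, and 3.92 and 2.15 CPM in 2-cell embryos. In 8-cell embryos pool A held 52.3 CPM and pool B 0.705 CPM, and 95.1% of the 1276 counts of pool A came from the single fraction F10. Morula pools held 2.22 and 0.316 CPM and blastocyst pools 1.61 and 1.02 CPM. No difference between pool and transcriptome passed for GATA4 (8-cell log2 2.37 ± 1.10, adjusted p = 0.066). The fall of the pool from the 8-cell stage to the morula passed (log2 -4.39 ± 1.38; adjusted p = 0.0157), but without 8-cell pool A the change was 0.82 (adjusted p = 0.693), and it did not pass without morula pool B (log2 -3.54; adjusted p = 0.0975).

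SOX17, an endoderm transcription factor that acts with the GATA factors in the hypoblast, had single-digit counts or none in each transcriptome and more in the pools before the 8-cell stage. In GV oocytes the transcriptomes held 2 counts in all and the pools 103, a ratio of 23.3 (95% interval 6.30 to 195; adjusted p = 0.0189), which passed in 2 of 5 fits that left out 1 library and not without pool B or transcriptome A or B. In MII oocytes the transcriptomes held 0 counts and the pools 9 and 15, at least 4.18-fold higher (adjusted p = 0.0132), and this difference passed in all 5 such fits. In 2-cell embryos the transcriptomes held 0.304, 0.0799 and 0 CPM and the pools 2.78 and 2.00 CPM (log2 4.15 ± 1.30; adjusted p = 0.0118), or 5.70 without the 2-cell transcriptome A. The pools thus held more SOX17 than the transcriptomes at each of the first 3 stages. This excess was not confined to heavy fractions. With the lighter fractions F3 to F5 as the pool, chosen after seeing the data, it passed at all 3 stages (adjusted p = 0.00515, 0.0338 and 0.0395). With F1 and F2 it passed in GV oocytes (adjusted p = 0.0185) but not in MII oocytes or 2-cell embryos. In each of these F8 to F10 pools, 71% to 100% of the counts came from 1 fraction.

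At the 8-cell stage SOX17 was at 0 counts in all 3 transcriptomes and in pool B, with 3 counts in pool A. The pools fell from 165 counts at the 2-cell stage to those 3, a ratio of 50.3 (95% interval 16.9 to 246; adjusted p = 0.0108). They then rose to 118 counts in morulae, a ratio of 33.4 (95% interval 11.1 to 164; adjusted p = 0.0154). Both calls were lost without 8-cell pool B (adjusted p = 0.0583 and 0.071) and in fits of the compared groups alone (adjusted p = 0.19 and 0.502). In morulae the transcriptomes held 0.467, 0.715 and 0.323 CPM and the pools 2.70 and 1.78 CPM, and in blastocysts the values were 0.588, 0.622 and 0.600 CPM against 2.92 and 1.92 CPM. Neither of these later differences passed (adjusted p = 0.14 and 0.204), although both pools lay above all transcriptomes at both stages. The transcriptome went from 0 to 16 counts between the 8-cell stage and the morula, at least 5.58-fold (adjusted p = 0.0228), and without the 8-cell transcriptome A this did not pass (adjusted p = 0.0683), nor did it without B or C of that stage or morula transcriptome B.

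HNF4A, a nuclear receptor of visceral endoderm and liver, was at 0 counts in the 12 transcriptomes from GV to the 8-cell stage and in the 10 pools from GV to the morula. A count of 0 allows up to 0.0236 CPM over those transcriptomes and 0.00946 CPM over those pools. One morula transcriptome held 2 counts. In blastocysts the transcriptomes held 5, 2 and 0 counts (1.47, 0.415 and 0 CPM) and the pools 151 and 108 counts (6.57 and 4.60 CPM), of which 84.1% and 93.5% came from F9. Apart from the 2 counts in a morula, HNF4A was thus detected in blastocysts only, among polysome pools and transcriptomes. The lighter fractions F3 to F5 of morulae held 1 and 27 counts in gradients A and B. The rise of the pools from morula to blastocyst was at least 97.0-fold against the floor (adjusted p = 0.0269). HNF4A passed the filter on low counts through the blastocyst pools, so that this call is no support on its own. A fit without the filter gave an adjusted p of 0.03. The call was lost in DESeq2 (adjusted p = 0.462), in a fit of the compared groups alone (adjusted p = 0.523) and with F7 to F10 as the pool (adjusted p = 0.0641). The rise did not pass when any 1 of the 4 libraries was left out (adjusted p = 0.0575 to 0.0812). The blastocyst difference between pool and transcriptome did not pass (log2 3.21 ± 1.59; adjusted p = 0.13).

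PDGFRA encodes the receptor for platelet-derived growth factor A and marks the hypoblast, and it is also made by fibroblasts and other mesenchymal cells. The transcriptomes held 4.71, 4.0 and 6.18 CPM in GV oocytes, 7.33, 7.502 and 8.45 CPM in MII oocytes, and 2.51, 3.60 and 1.81 CPM in 2-cell embryos. The pools of those stages held 3.103 and 2.81, 5.84 and 3.04, and 2.14 and 2.98 CPM. Both pools lay below all 3 transcriptomes in GV and in MII oocytes but not in 2-cell embryos. No difference between pool and transcriptome passed at these stages (adjusted p = 0.176, 0.113 and 0.974), and DESeq2 called the one in MII oocytes (adjusted p = 0.0253). The transcriptome fell by 1.56 ± 0.40 on the log2 scale from MII to the 2-cell stage (2.94-fold; adjusted p = 0.00899), a call lost without the 2-cell transcriptome C (adjusted p = 0.0666) and with library totals in place of scaling factors (log2 -1.05, adjusted p = 0.0762).

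PDGFRA then rose steeply. In 8-cell embryos the transcriptomes held 182, 98.6 and 128 CPM and the pools 19.4 and 52.5 CPM. In morulae the values were 84.8, 85.6 and 95 CPM against 13.3 and 21.3 CPM, and in blastocysts 76.7, 129 and 118 CPM against 28.5 and 26.4 CPM. Every pool lay below every transcriptome at these 3 stages. The transcriptome rose 51.5-fold from the 2-cell to the 8-cell stage (log2 5.69 ± 0.46; adjusted p = 6.8e-10) and the pool 14.0-fold (log2 3.81 ± 0.51; adjusted p = 2.5e-06). The rise of the pool was 2.92 without 8-cell pool B, and it did not pass in a fit of the compared groups alone (adjusted p = 0.0663). Without the 8-cell transcriptome A, the highest of the 3, the rise of the transcriptome was 5.42 (adjusted p = 3.9e-09).

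The pools held 3.78-fold less PDGFRA than the transcriptomes in 8-cell embryos (log2 -1.92 ± 0.44; adjusted p = 0.000795), 5.12-fold less in morulae (log2 -2.36 ± 0.45; adjusted p = 0.000154) and 3.94-fold less in blastocysts (log2 -1.98 ± 0.45; adjusted p = 0.00108). The first of these was -1.65 without the 8-cell transcriptome A (adjusted p = 0.00467) and -2.81 without 8-cell pool B. The pool-to-transcriptome ratio of PDGFRA changed by -1.88 ± 0.60 (log2) from the 2-cell to the 8-cell stage (adjusted p = 0.0419). It was the 1 change of ratio among 50 tested for the members that passed, beside 9.87% of all genes over the 5 steps and 12.2% at this one, and it did not pass without the 8-cell transcriptome A (log2 -1.61; adjusted p = 0.11).

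Markers of fibroblasts and mesenchyme rose along with PDGFRA from the 2-cell to the 8-cell stage, but not from morula to blastocyst. The 16 marker genes summed to 25.3 to 36.0 CPM in the 2-cell transcriptomes and to 1821 to 12422.5 CPM in those of 8-cell embryos. Of the 14 markers fitted, 12 rose, beside 26.6% of all genes, a count not refitted without the 8-cell transcriptome A. The sum was 732 to 1557 CPM in morula transcriptomes and 3417 to 4462 CPM in those of blastocysts. PDGFRA had means of 88.5 and 108 CPM in these transcriptomes, a change that did not pass. The pools held 511 and 769 CPM, 296 and 478 CPM, and 519 and 568 CPM at these 3 stages, so that the marker sum, like PDGFRA, was lower in the pools than in the transcriptomes. PDGFRB and FAP were at 0 in the 8-cell pools, and COL3A1, DCN, POSTN, PDGFRB and FAP in the blastocyst pools. The part of such cells in the PDGFRA values was not tested.

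**Figure D2:**
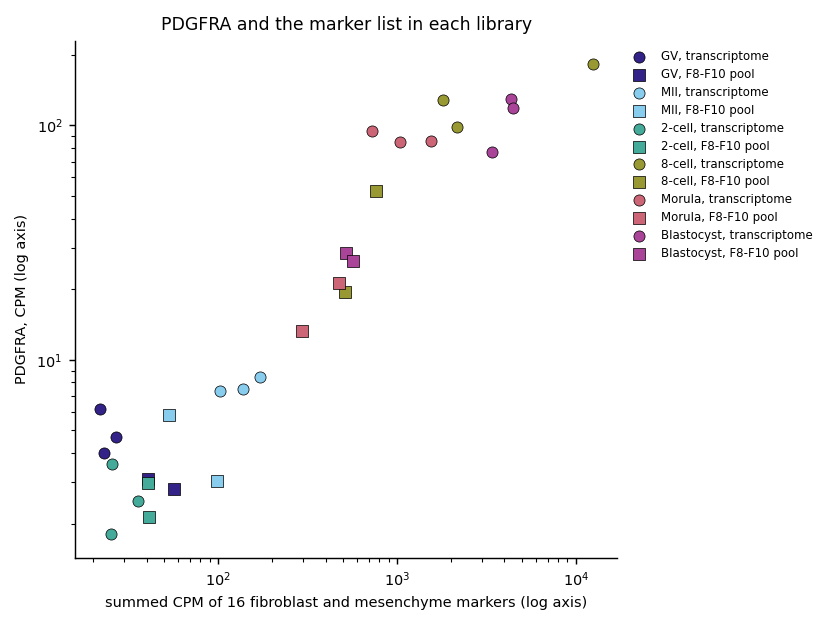
PDGFRA level against the summed level of 16 fibroblast and mesenchyme markers in 30 libraries, both in CPM on log axes, with stages by colour and transcriptomes and polysome pools by symbol. The 8-cell transcriptomes hold 98.6 to 182 CPM of PDGFRA at marker sums of 1821 to 12422.5 CPM, and the pools of the last 3 stages lie lower on both axes than their transcriptomes.

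FGF2, a ligand that binds several FGF receptors, was present at every stage. The transcriptomes held 30.7, 34.3 and 40.0 CPM in GV oocytes, 45.9, 44.4 and 42.1 CPM in MII oocytes, and 14.4, 26.5 and 23.0 CPM in 2-cell embryos. They held 39.2, 30.8 and 26.9 CPM in 8-cell embryos, 23.9, 30.4 and 34.6 CPM in morulae, and 43.8, 72.8 and 45.2 CPM in blastocysts. All 3 of the 2-cell transcriptomes lay below those of both oocyte stages. The fall from MII was 2.07-fold (log2 -1.05 ± 0.34; adjusted p = 0.0396), but it passed in only 1 of 6 fits that left out 1 library, and with library totals it was -0.54 (adjusted p = 0.329). The rise from morula to blastocyst did not pass (log2 0.86 ± 0.34; adjusted p = 0.0652).

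The FGF2 pools held 19.3 and 17.0 CPM in GV oocytes, 27.3 and 25.2 CPM in MII oocytes, and 16.3 and 17.9 CPM in 2-cell embryos. They held 7.46 and 14.2 CPM, 10.7 and 7.94 CPM, and 6.27 and 7.06 CPM at the 3 later stages. Pools lay below every transcriptome at all stages but the 2-cell stage. The difference passed at the last 3 stages: 8-cell (2.98-fold; log2 -1.57 ± 0.39; adjusted p = 0.00162), morula (3.19-fold; log2 -1.67 ± 0.40; adjusted p = 0.00122) and blastocyst (8.09-fold; log2 -3.02 ± 0.42; adjusted p = 5.0e-06). Without the 8-cell transcriptome A the first was -1.41 (adjusted p = 0.00661), and in a fit of the 8-cell libraries alone it did not pass (adjusted p = 0.0822). In GV and MII oocytes the differences of -0.95 and -0.75 missed the threshold (adjusted p = 0.0515 and 0.0941), and DESeq2 called both.

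FGF4, the ligand that epiblast precursors send to the hypoblast in the mouse, had 0 counts in every transcriptome and pool up to the 2-cell stage. The transcriptomes held 0 counts in 8-cell embryos, 13, 3 and 11 counts in morulae (1.21, 0.268 and 1.19 CPM) and 0 counts in blastocysts, where the floor was 0.222 CPM. The pools held 0 and 36 counts in 8-cell embryos, the 36 all in F9 of gradient B, then 138 and 236 counts in morulae (6.65 and 6.79 CPM) and 74 and 46 counts in blastocysts (3.22 and 1.96 CPM). FGF4 was therefore highest in morulae in both kinds of library, but neither fall from morula to blastocyst passed. All 138 counts of morula pool A and all 46 of blastocyst pool B came from F8.

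The pools of blastocysts were at least 9.0-fold higher in FGF4 than the transcriptomes (adjusted p = 0.0248), a call that held in 1 of 5 fits that left out 1 library. The few groups with counts also brought FGF4 past the filter on low counts, so that this call is no support on its own. Without the filter the adjusted p was 0.0237. The call was lost in DESeq2 (adjusted p = 0.55) and with the letter as a replicate block (adjusted p = 0.0522). The 8-cell pools were at least 6.38-fold higher (adjusted p = 0.0345), but pool A was at 0 like the transcriptomes, and the call was lost without pool B or without any 1 of the 3 transcriptomes (adjusted p = 0.0728 to 0.0738). The morula difference did not pass (log2 2.91 ± 1.48; adjusted p = 0.12). Between stages, the pools rose at least 13.1-fold from the 2-cell to the 8-cell stage (adjusted p = 0.0337), on the 36 counts of gradient B alone, and the transcriptome rise to the morula, at least 9.42-fold, did not pass (adjusted p = 0.0531).

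FGFR1, the receptor gene that most tissues share, was near the lower limit of these libraries. The transcriptomes held 0 to 0.343 CPM from GV to the 2-cell stage, 5.57, 3.32 and 1.30 CPM in 8-cell embryos, 0.933, 0.894 and 0 CPM in morulae, and 0, 0 and 0.800 CPM in blastocysts. The rise to the 8-cell stage was 18.2-fold (log2 4.18 ± 1.47; adjusted p = 0.0202), and it passed in 2 of 6 fits that left out 1 library. It was lost without the 8-cell transcriptome A (log2 3.63; adjusted p = 0.0582) and without any 1 of the 2-cell transcriptomes (adjusted p = 0.0521 to 0.0669). The pools held 0.681 and 0.730 CPM, 0.865 and 0.644 CPM, 1.56 and 1.60 CPM, 0.615 and 0.488 CPM, 0 and 4.63 CPM, and 0.827 and 0.213 CPM in order of stage. They lay above all transcriptomes at the first 3 stages and below them in 8-cell embryos, and none of the 6 differences passed (2-cell adjusted p = 0.0856, 8-cell adjusted p = 0.15).

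FGFR2, whose product binds ligands of the FGF7 and FGF10 type as well as FGF4, stayed within a narrow range in the transcriptomes of 5 stages. They held 6.79 to 8.41 CPM in GV oocytes, 8.21 to 9.73 CPM in MII oocytes, 4.796 to 9.55 CPM in 2-cell embryos, 3.99 to 5.72 CPM in morulae and 5.20 to 7.46 CPM in blastocysts. In 8-cell embryos they held 16.9, 5.65 and 5.22 CPM, with only transcriptome A outside the range of the other stages. No step between stages passed in either kind of library. The pools varied more, at 16.7 and 5.49 CPM in GV oocytes, 12.2 and 22.9 CPM in MII oocytes, 4.78 and 4.65 CPM in 2-cell embryos, 1.11 and 1.41 CPM in 8-cell embryos, 6.75 and 0.345 CPM in morulae, and 4.44 and 2.68 CPM in blastocysts. The difference passed in 8-cell embryos alone, where the pools were 7.31-fold lower (log2 -2.87 ± 0.87; adjusted p = 0.00707), or -2.10 without transcriptome A (adjusted p = 0.0409), and in a fit of the 8-cell libraries alone this did not pass (adjusted p = 0.0707).

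FGFR4, a receptor with a preference for ligands of the FGF19 type, was at 0 counts in all 9 transcriptomes up to the 2-cell stage, which allows up to 0.0309 CPM. The pools of those stages held 0 and 0, 0 and 1, and 11 and 3 counts. The 14 counts of the 2-cell pools were at least 2.51-fold above the transcriptomes (adjusted p = 0.018), a call lost without 2-cell pool A (adjusted p = 0.12). In 8-cell embryos the transcriptomes held 1.71, 1.17 and 4.44 CPM and the pools 62.0 and 155 CPM. In morulae the values were 36.9, 44.3 and 34.5 CPM against 166 and 529 CPM, and in blastocysts 11.2, 14.9 and 10.8 CPM against 215 and 192 CPM. As with GATA6, both pools lay above all 3 transcriptomes at each of these stages.

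The FGFR4 pools exceeded the transcriptomes 44.3-fold in 8-cell embryos (log2 5.47 ± 0.66; adjusted p = 2.0e-06), 9.0-fold in morulae (log2 3.17 ± 0.59; adjusted p = 0.000277) and 16.5-fold in blastocysts (log2 4.05 ± 0.62; adjusted p = 5.6e-05). The first was 5.27 without the 8-cell transcriptome A (adjusted p = 3.7e-05), 4.66 without 8-cell pool B and 6.22 without the 8-cell transcriptome C. The morula value was 2.09 without morula pool B (adjusted p = 0.0114). The transcriptome rose at least 31.0-fold from the 2-cell to the 8-cell stage, from 0 to 84 counts (adjusted p = 1.8e-05), or at least 36.0-fold with 64 counts when transcriptome A was left out. It rose a further 15.8-fold to the morula (log2 3.98 ± 0.60; adjusted p = 0.000245), with log2 3.78 when transcriptome A and 4.73 when transcriptome C of the 8-cell stage was left out. It then fell 3.13-fold to the blastocyst (log2 -1.65 ± 0.54; adjusted p = 0.0361), a change that did not pass when any 1 of the 6 libraries was left out (adjusted p = 0.0663 to 0.119). The pools rose from the 2-cell to the 8-cell stage (log2 9.02 ± 0.93; adjusted p = 7.6e-07; 10.09 without 2-cell pool A and 8.21 without 8-cell pool B), and their later changes of 1.68 and -0.77 did not pass (adjusted p = 0.0516 and 0.489).

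**Figure D3:**
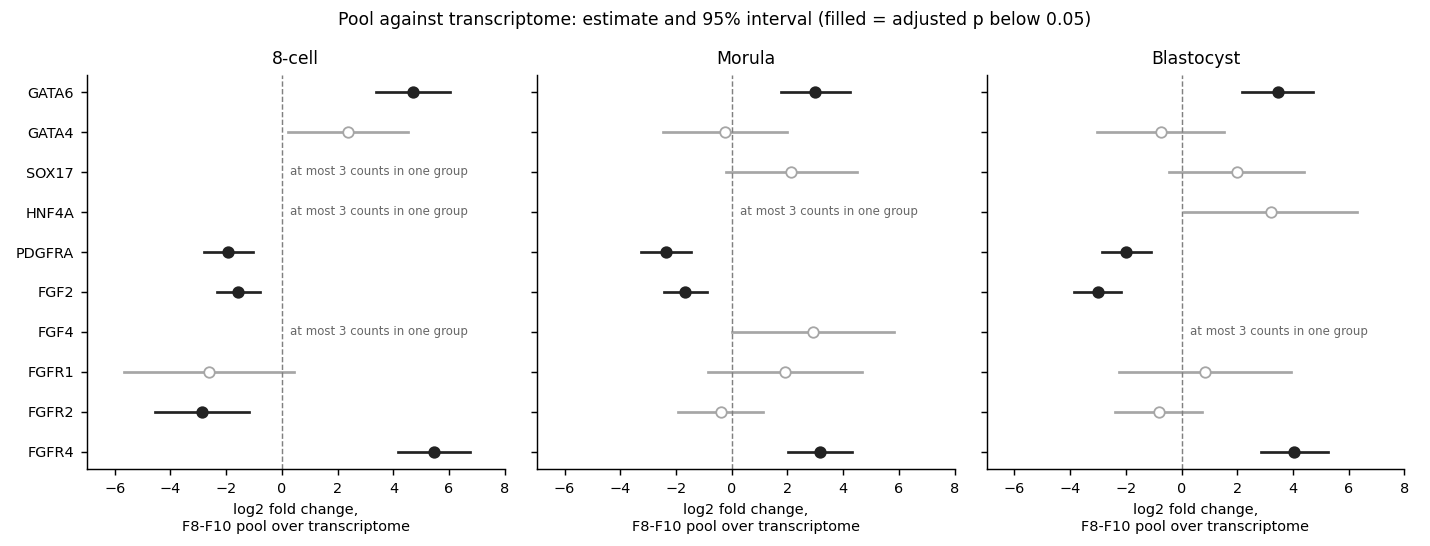
Log2 difference of polysome pool over transcriptome for each gene in 8-cell embryos, morulae and blastocysts, with a 95% interval built from its SE and the normal distribution. Filled points passed the test, and genes with 3 or fewer counts in a group are marked. GATA6 and FGFR4 lie at 2.99 to 5.47, PDGFRA and FGF2 at -1.57 to -3.02, and no difference of GATA4, FGFR1 or HNF4A passed the test.

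Read as an order of levels, the GATA6 and FGFR4 transcriptomes were highest in morulae, then in blastocysts, then in 8-cell embryos, with no overlap between these neighbours. In the pools the order was not resolved, since the morula pools of each gene (124 and 336 CPM for GATA6, 166 and 529 CPM for FGFR4) spanned those of a neighbouring stage. For PDGFRA the 8-cell, morula and blastocyst transcriptomes overlapped in part, and for FGF2 the blastocyst transcriptomes overlapped those of MII oocytes. Counted over steps between stages, 11 of 50 transcriptome changes passed beside 23.0% of all genes, and 8 of 50 pool changes beside 22.1%. Without HNF4A and FGF4 these were 11 of 40 and 6 of 40. Of the former, 5 fell at the step from the 2-cell to the 8-cell stage, when the embryonic genome is activated: GATA6, GATA4, PDGFRA, FGFR1 and FGFR4 rose and none fell, beside 26.6% of all genes that rose. From the 8-cell stage to the morula 3 members rose (6.60% of all genes rose), 2 fell from MII to the 2-cell stage (5.96% fell), 1 fell from morula to blastocyst (11.4% fell), and none passed from GV to MII (17.1% passed). Of the 50 transcriptome changes, 8 passed without the 8-cell transcriptome A.

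Of the 8 pool changes, 5 were at the 2-cell to 8-cell step, where GATA6, PDGFRA, FGF4 and FGFR4 rose and SOX17 fell (46.3% of all genes passed). From the 8-cell stage to the morula SOX17 rose and GATA4 fell (36.2%), and HNF4A rose from morula to blastocyst (5.79% rose). No member passed from GV to MII (5.37%) or from MII to the 2-cell stage (8.51%).

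Within the gradients, the excess of GATA6 and FGFR4 over the transcriptome was not confined to heavy fractions. Single fractions were scaled among the 120 fractions alone, so counts of fractions above or below the transcriptomes set unlike scales side by side. For FGFR4 in morula gradient A the pool held 166 CPM, and the mean of F8 to F10 on the fraction scale was 117 CPM. On these scales GATA6 was above the highest transcriptome of its stage in 20 of 20 fractions in 8-cell embryos, 19 of 20 in morulae and 19 of 20 in blastocysts. FGFR4 was above it in 16, 18 and 18 of 20. When F3 to F5, the lighter fractions, took the place of F8 to F10, a comparison chosen after seeing the data, the GATA6 differences were 4.14, 3.72 and 3.42 (log2) in 8-cell embryos, morulae and blastocysts, and those of FGFR4 were 4.21, 1.49 and 3.29. With the lightest fractions F1 and F2, likewise chosen after seeing the data, GATA6 gave 4.19, 1.79 and 2.64 and FGFR4 gave 5.32, 2.18 and 1.45, all of which passed but the last (adjusted p = 0.105). The difference of heavy over light fractions of the same gradients did not pass for GATA6 (8-cell log2 0.53, adjusted p = 0.757) or for FGFR4 (8-cell log2 1.21, adjusted p = 0.296).

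PDGFRA and FGF2 lay below the transcriptomes in most fractions, on the same unlike scales. No fraction of the last 3 stages held more PDGFRA than the highest transcriptome, and 19, 19 and 20 of 20 fractions lay below the lowest. For FGF2 19, 20 and 19 of 20 fractions lay below the lowest transcriptome. The exceptions were F1 of 8-cell gradient A, at 39.9 CPM just above the highest transcriptome, and F3 of blastocyst gradient A, at 45.4 CPM within their range. Differences as small as that of F1 are not resolved across these scales. With F3 to F5 in place of the pool, the FGF2 differences were -2.02, -0.71 and -1.04 (log2) at the 3 stages, of which the morula's did not pass (adjusted p = 0.142), and those of PDGFRA, -5.87, -1.73 and -1.86, all passed. With F1 and F2 in place of the pool, the FGF2 differences at these stages did not pass (log2 -1.06, -1.12 and -1.07), and PDGFRA lost its call in morulae (log2 -0.87; adjusted p = 0.136).

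Within the gradient PDGFRA lay towards the heavy end in 8-cell embryos. F1 to F5 held at most 5.61 CPM, whereas F7 of gradient A held 103 CPM and F8 and F10 of gradient B held 80.0 and 74.8 CPM. F8 to F10 held 17.7 and 46.8 CPM against 3.14 and 1.18 CPM in F3 to F5 (log2 3.90 ± 1.01; adjusted p = 0.0251), and every heavy pool was above every light pool. This was 1 of 2 differences of heavy over light among 60 that passed for the members, beside 2.22% of all genes over the 6 stages and 9.35% in 8-cell embryos. It did not pass with the gradient as a replicate block (log2 3.89; adjusted p = 0.0701), without gradient A (log2 5.30; adjusted p = 0.0682), without gradient B (log2 2.49; adjusted p = 0.206) or in a fit of the 8-cell pools alone (adjusted p = 0.156).

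SOX17 gave the other difference, in the opposite direction. Its 8-cell counts lay in the light fractions, 217 and 130 in F3 to F5 of the gradients A and B against 3 and 0 in F8 to F10, a ratio of 99.8 (95% interval 33.9 to 486; adjusted p = 0.0352). F4 held the most in both gradients, at 25.9 and 11.5 CPM. With the gradient as a replicate block the difference did not pass (adjusted p = 0.0574), and it did not pass without either gradient (adjusted p = 0.0817 and 0.0949). In morulae the light pools held 22.1 and 40.3 CPM of SOX17 and the heavy pools 2.73 and 1.57 CPM. This passed in DESeq2 (log2 -3.99, adjusted p = 0.00267) but not in the main fit. In blastocysts the heavy pools were higher, at 2.82 and 1.88 CPM against 0.272 and 0.618 CPM. F3 to F5 over the transcriptomes, chosen after seeing the data, passed in 8-cell embryos and morulae (adjusted p = 5.5e-05 and 0.000265). For FGF2 in blastocysts the heavy pools held 6.06 and 6.95 CPM and the light pools 29.0 and 27.6 CPM, without overlap, and this did not pass in edgeR (log2 -2.12 ± 0.73; adjusted p = 0.162) but did in DESeq2 (log2 -2.22; adjusted p = 0.000354).

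**Figure D4:**
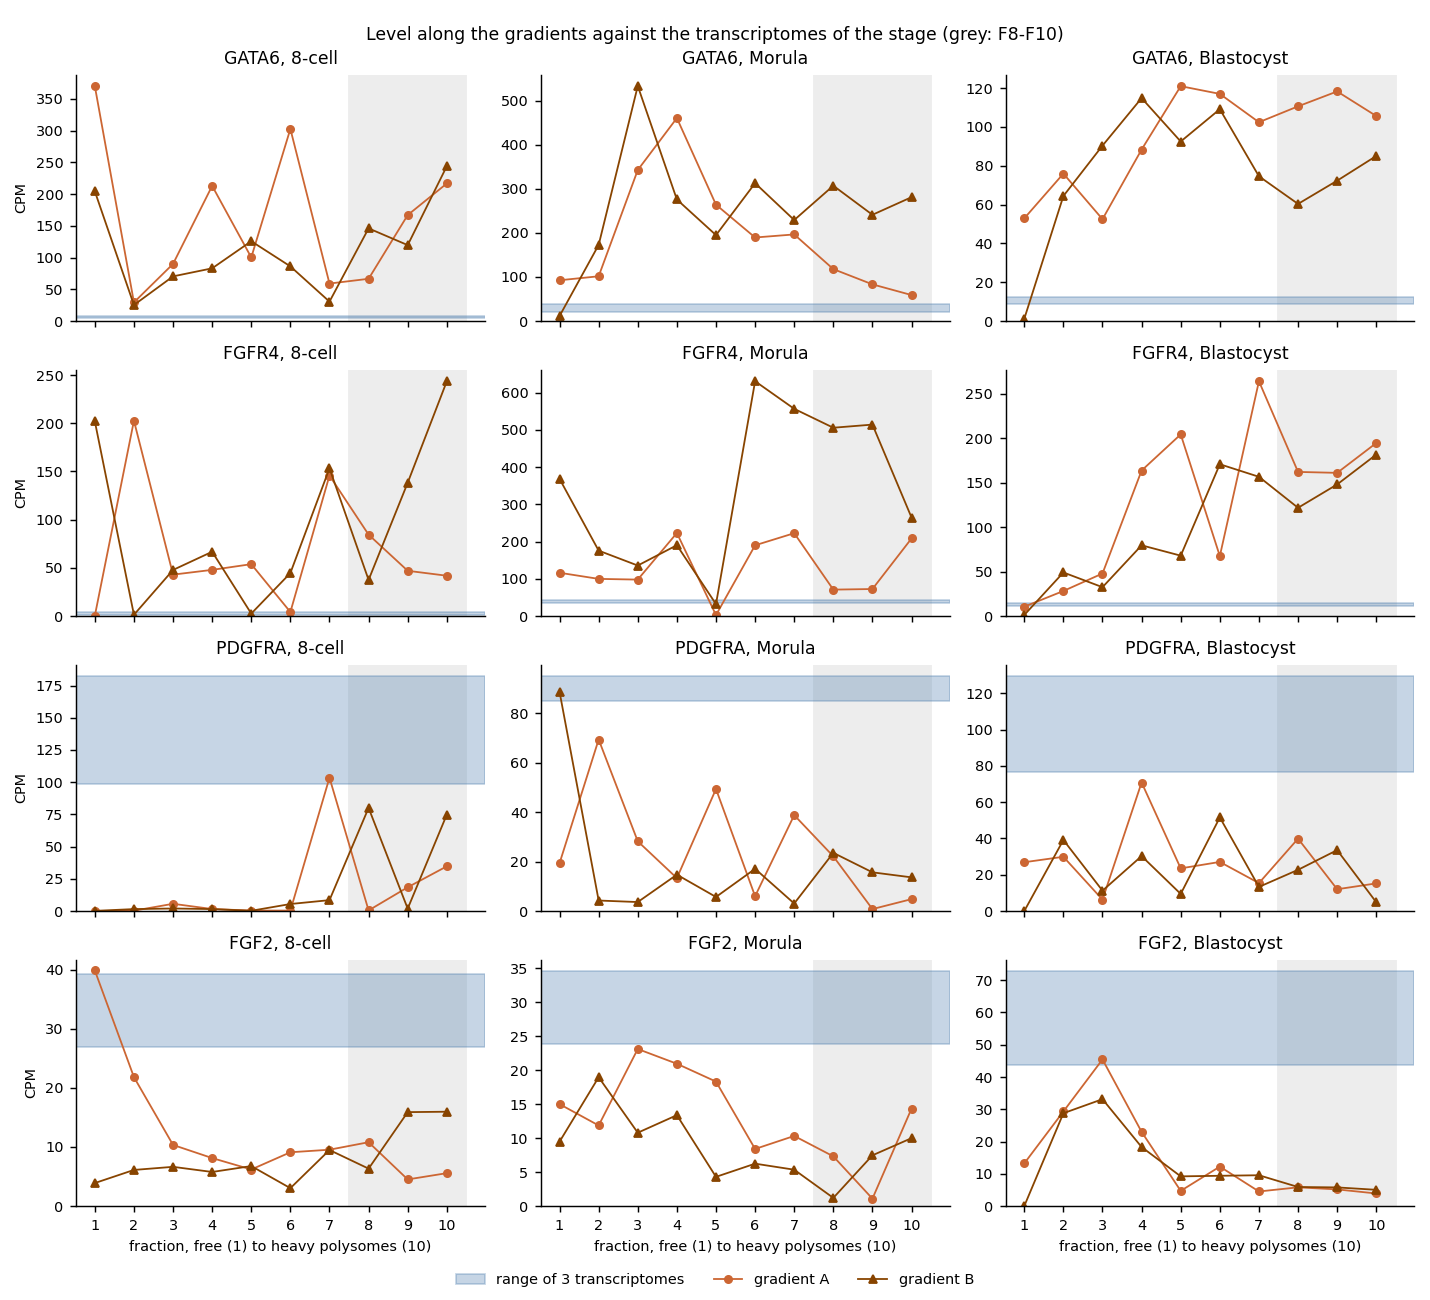
CPM of GATA6, FGFR4, PDGFRA and FGF2 in fractions 1 (light) to 10 (heavy) of gradients A and B in 8-cell embryos, morulae and blastocysts, with the range of the 3 transcriptomes as a band and F8 to F10 shaded. GATA6 and FGFR4 lie above the band in 16 to 20 of 20 fractions, and PDGFRA and FGF2 lie below it in 19 or 20 of 20. Fractions and transcriptomes were scaled apart, so that lines and band are on unlike scales.

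Other genes of the FGF pathway were followed through lists of ligands, receptors, relay proteins and targets. Of 13 other ligands fitted, 2 rose and 4 fell in the transcriptome from the 2-cell to the 8-cell stage, beside 26.6% and 23.5% of all genes, and 1 and 3 did without the 8-cell transcriptome A. FGF20 fell from 6.81 to 0.262 CPM (log2 -4.66; adjusted p = 0.000854) and FGF19, an endocrine ligand, from 4.57 to 0.174 CPM (adjusted p = 0.000303). FGF13, an intracellular member of the family, rose by 3.08 (adjusted p = 0.0414), a call lost without that library (adjusted p = 0.0738). In blastocysts 1 ligand was higher and 1 lower in the pools than in the transcriptomes, beside 20.0% and 20.1% of all genes. FGF22 was at 3.20 ± 0.89 CPM against 0.341 ± 0.315 CPM (adjusted p = 0.0465), and FGF12, at 1.12 CPM in the transcriptomes, was at 0 in the pools. FGF10 was at 1.15 ± 0.22 CPM in morula transcriptomes and at 0 in those of blastocysts. It was the 1 ligand that changed at that step, where 10.2% of all genes rose and 11.4% fell. Among the 3 other receptors fitted, FGFR3 rose from 8.89 ± 2.35 to 71.1 ± 6.10 CPM between morula and blastocyst (log2 2.998 ± 0.61; adjusted p = 0.00174).

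Of 18 relay genes that carry the signal from receptor to ERK, 1 rose and 7 fell from the 2-cell to the 8-cell stage, beside 26.6% and 23.5% of all genes, with a median log2 change of -1.05 beside 0.03. Without the 8-cell transcriptome A the counts were again 1 and 7. ARAF, a RAF kinase, rose from 3.27 to 622 CPM (log2 7.57; adjusted p = 4.0e-12), and MAP2K1, which encodes MEK1, fell from 217 to 21.9 CPM (log2 -3.31; adjusted p = 2.0e-08). From morula to blastocyst 6 relay genes rose and none fell, beside 10.2% and 11.4% of all genes, with a median of 0.80; SHC1, an adaptor, rose from 8.44 to 46.4 CPM (adjusted p = 3.2e-05), and MAPK3, which encodes ERK1, rose by 2.36 (adjusted p = 0.0197). In blastocysts 6 relay genes were higher and 4 lower in the pools, beside 20.0% and 20.1% of all genes. HRAS, a small GTPase that activates RAF kinases, was higher (138 against 26.6 CPM; adjusted p = 6.9e-05), and MAP2K1 was lower (11.3 against 100.4 CPM; adjusted p = 9.8e-07).

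Of 18 genes for feedback on ERK and for its targets, 8 were higher and 1 lower in blastocyst pools than in transcriptomes, beside 20.0% and 20.1% of all genes, with a median of 1.69. IL17RD, an inhibitor of FGF receptors, was at 6.91 ± 4.73 CPM in the pools and 0 in the transcriptomes, and ETV4, an ETS factor induced by FGF, at 14.3 against 0.0691 CPM. SPRY2, another feedback inhibitor, was the 1 that was lower (2.43 against 56.4 CPM; adjusted p = 0.00139). In the transcriptome 8 rose and 4 fell from the 2-cell to the 8-cell stage, beside 26.6% and 23.5% of all genes, and 7 and 4 did without the 8-cell transcriptome A. The median log2 change of these 18 genes was 0.39, or -0.39 without that library. Among them were EGR1, an early response gene, going from 0.687 to 92.4 ± 63.8 CPM and SPRED2 from 91.4 to 11.4 CPM. Between morula and blastocyst none rose and 3 fell, beside 10.2% and 11.4% of all genes, among them DUSP5, a phosphatase of ERK (10.2 to 0.826 CPM; adjusted p = 0.00038).

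Of 26 other hypoblast genes fitted, 9 rose and 6 fell from the 2-cell to the 8-cell stage, with a median of 0.62, beside 26.6% and 23.5% of all genes, and 7 and 5 with a median of 0 without the 8-cell transcriptome A. SPARC, a matrix glycoprotein that fibroblasts also make, rose from 1.38 to 1946 ± 1838 CPM, and APOA1, an apolipoprotein of yolk sac endoderm, from 0.151 to 427 ± 437 CPM, both with a spread about as large as the mean. Without that library the log2 rises were 9.32 for SPARC and 10.11 for APOA1, against 10.45 and 11.38 with it. From morula to blastocyst 4 rose and 1 fell, beside 10.2% and 11.4% of all genes. APOA1 rose from 2.98 to 56.0 CPM (adjusted p = 0.00519) and PDGFA, the ligand of PDGFRA, by 2.02 (adjusted p = 0.00467). In blastocysts 4 were higher and 3 lower in the pools, beside 20.0% and 20.1% of all genes. COL4A2, a basement membrane collagen, was higher (25 against 2.16 CPM; adjusted p = 0.000461) and NID2, which links basement membrane proteins, lower (24.7 against 104 CPM; adjusted p = 0.000182). Epiblast markers summed to 787 to 851 CPM in morula transcriptomes, to 432 to 472 CPM in those of blastocysts and to 1513 and 1556 CPM in blastocyst pools.

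The genes whose levels ran most alike were found by Pearson's r of log2 CPM over the 30 libraries, which share stages, kinds of library and depth, so that r describes this set only. GATA6 was most like TEAD4 (r = 0.987), FGFR4 (0.981) and TTC38 (0.978). FGFR4 was in turn most like GATA6, SLC39A4 (0.976) and SLC30A2 (0.974), and no other pair of members appeared among each other's nearest 3. PDGFRA was most like DNAJB9 (0.970), PUS7 (0.962) and ARMT1 (0.959), and FGF2 was most like GBA3 (0.926). SOX17 was most like SEMA4C (0.919), FGF4 most like RAB42 (0.978) and HNF4A most like VSIR (0.990), the last 2 members being at 0 in most libraries. FGFR1, FGFR2 and GATA4 had no gene as close, with highest values of 0.758 (MAGED4B), 0.743 (RFX7) and 0.844 (FOXS1).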

How the data were processed

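Per the labels, RNA of 120 gradient fractions and 18 transcriptomes was amplified and sequenced as paired ends, and the authors deposited Salmon expected counts per gene symbol (138 libraries; Salmon version not given in the sources used here; UMD3.1 named in the processing notes). Of the values, 11.7% were not whole, and all were rounded. Fractions held 1229382 to 17342859 counts (median 10334106). Samples were grouped by stage and kind of library from the labels, and 0 columns were left unmapped. None of 78 replicate pairs was identical.

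The counts of F8 to F10, the fractions the study classes as polysome-bound, were summed per gradient here, and F3 to F5 gave the light pool. Quasi-likelihood tests were run in edgeR 4.0.16 (limma 3.58.1, R 4.3.3) with filterByExpr, TMM factors and Benjamini-Hochberg adjustment over all genes: 12 pools and 18 transcriptomes in 1 model (14612 genes), and 24 heavy and light pools in another (14873 genes). SEs were derived from the fold change and its F value. DESeq2 1.42.0 was an alternative. CPM of single fractions used TMM factors from the 120 fractions alone, and CPM of heavy and light pools those of their own model. The scripts were tested on simulated data. The genes named are the 10 members, at most 2 genes per pathway list, direction and comparison with the largest fold among those that passed, of which some are left out here, and the 3 genes most like each member. Of the listed genes, 19 of 20 ligands, 28 of 29 hypoblast genes and 9 of 11 epiblast markers were in the table, and the rest were not analysed here. The members and lists were chosen with earlier results of these data known.

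Pools and transcriptomes of the same letter did not deviate together (r = -0.0687 to 0.0355), and the labels do not pair them. Heavy and light pools do come from the same gradient (r = -0.0774 to 0.169). Amplified reads without molecular identifiers are not independent molecules. The sources name different genome builds, so no coordinates are given.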

Additional observations from a re-analysis of the deposited data

Results flagged for a closer look

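The pool-to-transcriptome ratio of PDGFRA changed from the 2-cell to the 8-cell stage by -1.88 on the log2 scale, so that the difference between pool and transcriptome at the 8-cell stage was itself different from that at the 2-cell stage by a test of the interaction (SE 0.60; adjusted p = 0.0419 in edgeR). The 2-cell pools held 2.14 and 2.98 CPM beside 2.51, 3.60 and 1.81 CPM in the transcriptomes, and the 8-cell pools 19.4 and 52.5 CPM beside 182, 98.6 and 128 CPM. The change passed in 3 of the 10 fits that left out 1 library, with values from -2.76 to -1.33. Without the 8-cell transcriptome A, whose fibroblast and mesenchyme markers were highest, it was -1.61 (adjusted p = 0.11).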

How the results depend on the processing

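Of the 60 differences between pool and transcriptome, 20 passed, and 15 to 25 did under the alternatives, 18 with the letter as a replicate block and 19 to 21 when 1 library was left out. For the transcriptome between stages, 11 passed, with 9 to 16 under the alternatives, 11 under the replicate block and 8 to 11 with a library left out. For the pool between stages, 8 passed, 12 with the likelihood ratio test, 7 under the replicate block, 7 to 9 with a library left out, and 2 in fits of the compared groups alone, which have fewer libraries. The 1 change of ratio became 4 with the likelihood ratio test and 5 with DESeq2, 0 without the filter, with fractions of equal weight or under the replicate block, and 0 to 3 with a library left out. The 2 differences of heavy over light became 5 with the likelihood ratio test, 4 with DESeq2, 1 in fits of the compared groups and 0 under the replicate block, which here is the shared gradient, and 0 to 2 with a gradient left out.

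Among single results that passed, 153 fits with a library left out kept the call, 58 lost it and 1 turned its direction; over the other settings 365 kept it and 44 lost it. Results that had not passed gained a call in 19 and 70 fits. The direction turned for GATA4 in the pool from 8-cell to morula without 8-cell pool A (0.82, against -6.34 without morula pool A), for FGFR1 in the morula pool against transcriptome without morula pool B (-6.46, adjusted p = 0.0463, against 2.88 without morula pool A), for GATA4 in the morula with F3 to F5 (2.77) and for PDGFRA in the 2-cell stage with F1 and F2 (1.26). The causes were not tested. Settings with library totals, F3 to F5 or F1 and F2, the pathway lists without the 8-cell transcriptome A and the counts without HNF4A and FGF4 were chosen after seeing the data. Library totals moved the median of all genes to 0.46 from MII to the 2-cell stage and to -0.42 in blastocyst pools over transcriptomes, where the share of higher calls went from 49.9% to 39.8%. GATA6, SOX17, HNF4A, FGF4, FGFR1 and FGFR4 had groups with 3 or fewer counts. Where calls of the main fits on such groups are described, bounds or counting intervals are given. The value of -6.46 for FGFR1 sets a single pool at 0 counts against the transcriptomes and depends on the fit.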

Other observations

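Single fractions held much of the signal of the genes with few counts. SOX17 reached 145 CPM in F1 of blastocyst gradient B, where F1 of gradient A held 0.456 CPM. FGF4 in morulae was highest in F2 of both gradients, at 29.6 and 10.98 CPM, above both of its F8 to F10 pools. HNF4A in blastocyst gradient A lay in F3, F6, F7 and F9 at 8.62, 12.5, 13.1 and 12.6 CPM. In these fractions 1 library stands for 1 point of 1 gradient, so the values have no replicate of their own.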
